A study of Mus musculus with 16 samples.

Results

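The right ventricular free wall, the muscle of the chamber that pumps blood into the pulmonary artery, was compared between mice with pulmonary artery banding, a surgical narrowing of that vessel, and mice with a sham operation. The labels describe the banded mice as having right ventricular failure. All animals were male adult FVB mice, an inbred strain, aged 10 to 13 weeks, and the labels name no transgene, drug or other agent in any group. Right ventricular libraries make up 8 of the 16 in the series: 4 from banded mice (labelled PS, read here as banded, named RV_PS_9552, RV_PS_9553, RV_PS_9561 and RV_PS_9564) and 4 from sham-operated mice (numbered 1 to 4). The left ventricular free wall of both operations, also with 4 libraries per group, serves as the chamber that the band does not load directly. How long the band was in place, how strongly it narrowed the artery, and whether a library holds 1 mouse or a pool are not given in the sources used here, so p-values measure only how these samples scatter, part of which may be technical.

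PolyA RNA was sequenced, and the level of each gene was deposited as FPKM, fragments scaled to transcript length and to the mapped fragments of the library. Differences were taken on log2(FPKM + 1) for the 12100 of 23946 genes that reached 1 FPKM in no fewer than 4 of the 16 libraries. The 4 groups were fitted together with limma, with Benjamini-Hochberg adjustment over all tested genes and a threshold of 0.05. In the text, a gene rose or fell only where it passed in the same direction both on the deposited values and after each library was divided by its median-ratio scale factor. Log2 differences, their SE and the adjusted p refer to the deposited values unless called rescaled. The median log2 difference of all tested genes was 0.26 as deposited and 0.0893 rescaled, so a value near these is the level of the typical gene. It was 0.64 with every library brought to the same sum (TPM scaling) and -0.00745 with quantile normalization. Because the values come from pieces of whole tissue, fewer cells of a type and less RNA per cell cannot be told apart.

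All 10 cardiomyocyte markers were at 1 FPKM or more in both right ventricular groups, and the summed lung epithelial and thymic markers reached at most 1.68 and 4.62 FPKM in any library. The 10 summed to 19302 to 21882 FPKM in sham and 14399 to 20951 in banded libraries, Ttn rose, and Tnni3 and Nkx2-5 fell. The 6 ventricular cardiomyocyte markers summed to 13359 to 16172 FPKM in sham and 7356 to 10913 in banded libraries. Only Myl2 and Myl3 of the 6 fell and none rose. The median log2 difference of the 6 was 0.0188, against 0.26 for all tested genes, so the sum does not stand for each marker. The part of these cells in other falls was not tested. From the smallest FPKM steps, the sham libraries were estimated to hold 3.76e+05 to 1.33e+06 fragments and the banded libraries 2.37e+06 to 5.31e+06, so a value listed at 0 in a sham library rests on few fragments. The ribosomal RNA precursor Rn45s had a value of 0 in banded libraries RV_PS_9561 and RV_PS_9564, whose scale factors were 1.24 and 1.29, against 0.878 to 1.01 in the other six. The share of genes called also moved with transcript length: among genes whose longest transcript has 501 to 1000 nt, 5.78% rose and 15.5% fell, and among those of 6001 nt or more, 18.3% rose and 1.52% fell. What depth, Rn45s and length contributed to single results was not tested.

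**Figure D1:**
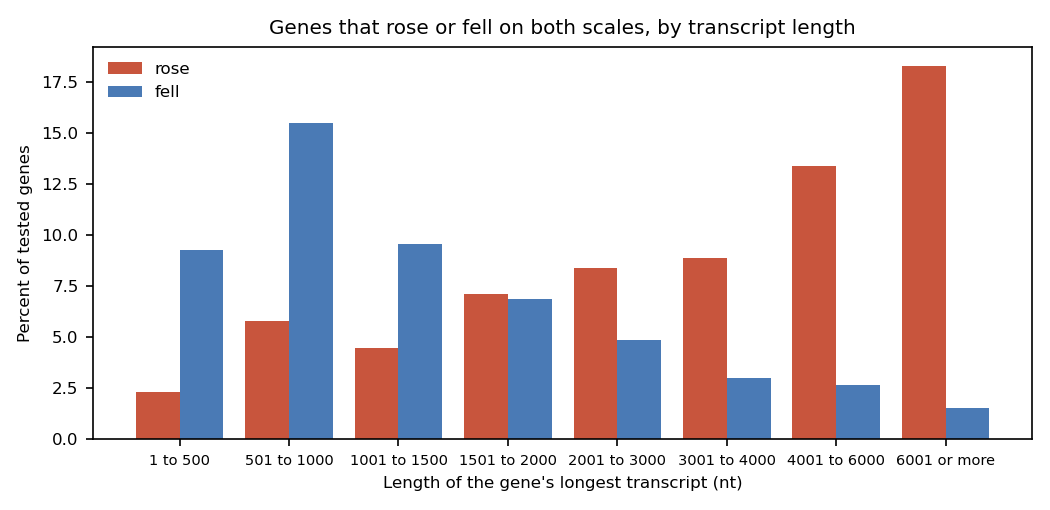
Percent of tested genes that rose (red) or fell (blue) on both scales in the banded right ventricle, by the length in nt of the gene's longest transcript. The share that rose goes from 2.31% in the shortest class to 18.3% in the longest, and the share that fell is highest, 15.5%, at 501 to 1000 nt.

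A ventricle under pressure overload works against a higher wall stress, and cardiomyocytes enlarge, rebuild the Z-discs and intercalated discs that carry force, and reactivate part of the fetal gene programme. The adult heart draws most of its ATP from fatty acids oxidised in mitochondria, with glucose, lactate, ketone bodies and branched-chain amino acids as further fuels. Phosphocreatine carries that energy to the contractile filaments, and the balance of these fuels is known to change in hypertrophied and failing hearts.

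On both scales 1212 of the 12100 tested genes (10.0%) rose in the banded right ventricle and 596 (4.93%) fell. Of these, 661 rose (5.46% of tested genes) and 208 fell (1.72%) by at least 2-fold. On the rescaled values alone 10.1% passed as higher and 9.49% as lower, 19.6% in all, and on the deposited values alone 12.5% and 4.93%. Gene functions other than natriuretic peptides, extracellular matrix and oxidative phosphorylation were read from 45 lists with 1396 tested genes, of which 183 rose and 123 fell. Each list count in the text is to be read beside the 10.0% and 4.93% of all tested genes that rose and fell. The fatty acid list held the largest share of falls, 23 of 51, and the integrin list the largest share of rises, 8 of 20. Calls depended on single banded libraries and on the shared estimate of spread: without library RV_PS_9561 there were 666 rises and 497 falls, without RV_PS_9564 721 and 462, and in a fit of the 8 right ventricular libraries alone 470 and 322. With the 2 banded libraries that have an Rn45s value, 197 of the 12100 rose and 309 fell. List counts under that setting are to be read beside these.

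**Figure D2:**
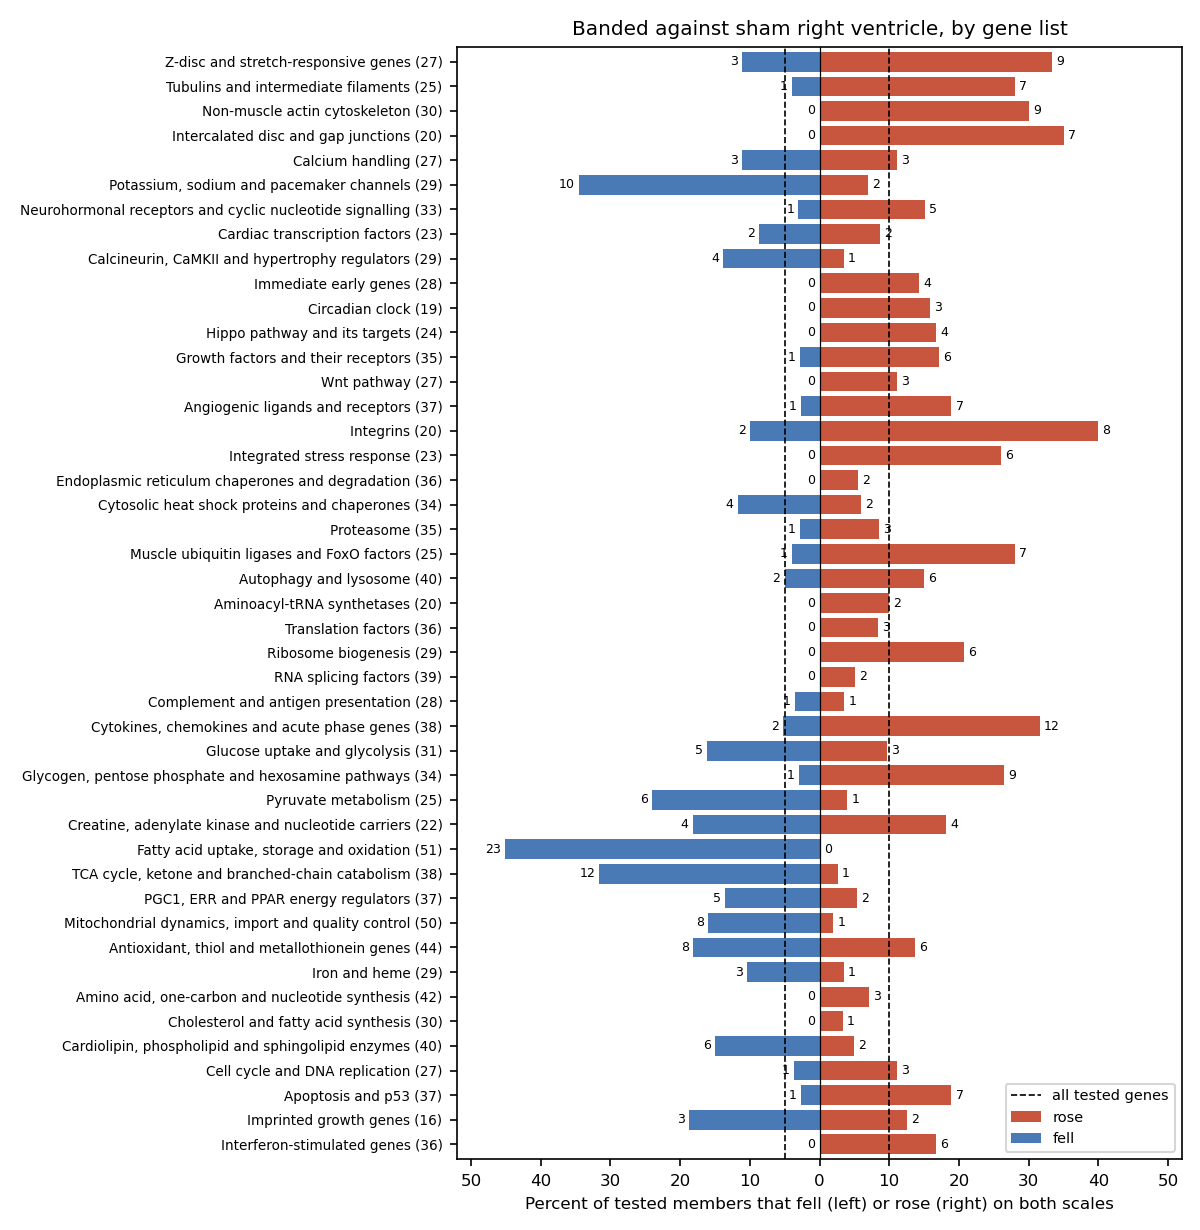
Percent of the tested members of each of 45 gene lists that rose (red, right) or fell (blue, left) on both scales in the banded right ventricle. Numbers at the bars are gene counts, the number tested is in brackets, and dashed lines mark the 10.0% and 4.93% of all 12100 tested genes. The longest bars are the 23 falls of the fatty acid list and the 8 rises of the integrin list.

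Among the 12 largest rises outside the left-out functions were stress and secreted factors. Gdf15, a cytokine of the TGF-beta family that is induced by cell stress, was at 0, 5.14, 2.71 and 6.26 FPKM in sham libraries 1 to 4 and at 23.3, 48.3, 36.5 and 32 in banded libraries RV_PS_9552, RV_PS_9553, RV_PS_9561 and RV_PS_9564 (log2 difference 3.28 ± 0.49 SE, limma adjusted p = 0.000523). The libraries keep this order in the sentences that follow. Every banded library was above every sham library, and 1 sham library was at 0. Fibin, a secreted protein, stood at 1.3, 1.52, 1.55 and 1.56 FPKM and 11.7, 9.34, 14.8 and 12.3 FPKM, with the 4 sham values close together and far below the banded ones (log2 difference 2.38 ± 0.25 SE, limma adjusted p = 3.67e-05).

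For Ccl8, Wfdc17 and Snhg1 every sham library was listed at 0, so no fold is given. Ccl8, a chemokine that attracts monocytes, was at 16.2, 4.52, 18.9 and 1.1 FPKM in the banded libraries (limma adjusted p = 0.00327). The Ccl8 values spread widely, and library RV_PS_9564 was the lowest and RV_PS_9561 the highest. Wfdc17, a small secreted protein of activated macrophages, was also highest in RV_PS_9561, with 6.88, 2.23, 9.32 and 2.9 FPKM (limma adjusted p = 0.00458). Snhg1, a host transcript of small nucleolar RNAs, was at 4.04, 12.7, 5.51 and 7.33 FPKM (limma adjusted p = 0.00188). S100a11, a calcium-binding protein, stood at 13.3, 0, 4.48 and 15.1 FPKM in sham and 35.2, 28.4, 50.5 and 23.4 in banded libraries. Shisa4 and Cda, the latter encoding cytidine deaminase, rose from 0.701 ± 1.4 to 6.94 ± 1.92 and from 1.05 ± 1.34 to 8.42 ± 0.602 FPKM, with 3 and 2 sham libraries listed at 0. Summed macrophage markers were 152 to 226 FPKM in sham and 199 to 343 in banded libraries, with Cd14, a monocyte receptor for lipopolysaccharide, the only one of 13 tested markers that rose. Cd14 did not pass without banded library RV_PS_9553 (limma adjusted p = 0.0715) or RV_PS_9561 (0.0587) or sham library 2 (0.0625). The part of these cells in the rises was not tested.

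Of the 12 largest falls, 5 were transcripts of pancreatic islets: Gcg, Ins2, Ins1, Iapp and Resp18. The islet markers summed to 658 to 2178 FPKM in sham and 68.5 to 159 FPKM in banded right ventricular libraries, 8 of 10 tested markers fell, and G6pc2 was listed at 0 in all 8. Of 14 exocrine pancreas markers 9 were at 0 in all 8 libraries. Ins1 did not pass without sham library 3 (limma adjusted p = 0.0510) or banded library RV_PS_9561 (limma adjusted p = 0.0600). In the left ventricle Ins2 was at 521 ± 739 FPKM in sham and 29.8 ± 12.9 FPKM in banded libraries. The left ventricular log2 differences were -1.91 for Gcg, -3.08 for Ins2, -2.45 for Ins1, -0.69 for Iapp and -0.72 for Resp18. For none of the 5 did the effects pass as different between the ventricles (limma adjusted p 0.108 to 0.902 as deposited). The part of islet RNA in other results was not tested.

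The other 7 large falls were in genes of varied function. Fbp2, the muscle fructose bisphosphatase, stood at 33, 27.5, 31 and 14.2 FPKM in sham and 2.93, 2.82, 2.39 and 3.37 FPKM in banded libraries (log2 difference -2.76 ± 0.23 SE, limma adjusted p = 5.45e-06). Penk, the precursor of enkephalin opioid peptides, went from 18.7, 21.7, 16.7 and 16.4 FPKM to 2.6, 2.72, 5.19 and 1.73 FPKM (log2 difference -2.31 ± 0.23 SE, limma adjusted p = 2.61e-05). Pfkfb1, an enzyme that makes and breaks the phosphofructokinase activator fructose-2,6-bisphosphate, went from 25.6, 12.4, 21.8 and 19 FPKM to 1.39, 2.68, 4.79 and 3.86 FPKM. For these 3 genes the groups were far apart. Abhd1, a hydrolase-like protein, fell from 49.1 ± 14.7 to 8.96 ± 1.82 FPKM and Sbk2, a kinase-like protein, from 10.2 ± 4.52 to 1.41 ± 0.888 FPKM (means with their SD, 4 libraries a group). Lgals4, a galectin, and the histone gene Hist1h4i fell from 61.2 ± 13.1 to 12.1 ± 6.67 and from 17 ± 5.71 to 1.94 ± 1.82 FPKM. Upk3b and Msln, of 4 tested markers of the heart surface lining, fell from 4.22 ± 3.24 to 0.249 ± 0.393 and from 5.87 ± 3.72 to 0.29 ± 0.226 FPKM, and only the Msln values overlapped.

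**Figure D3:**
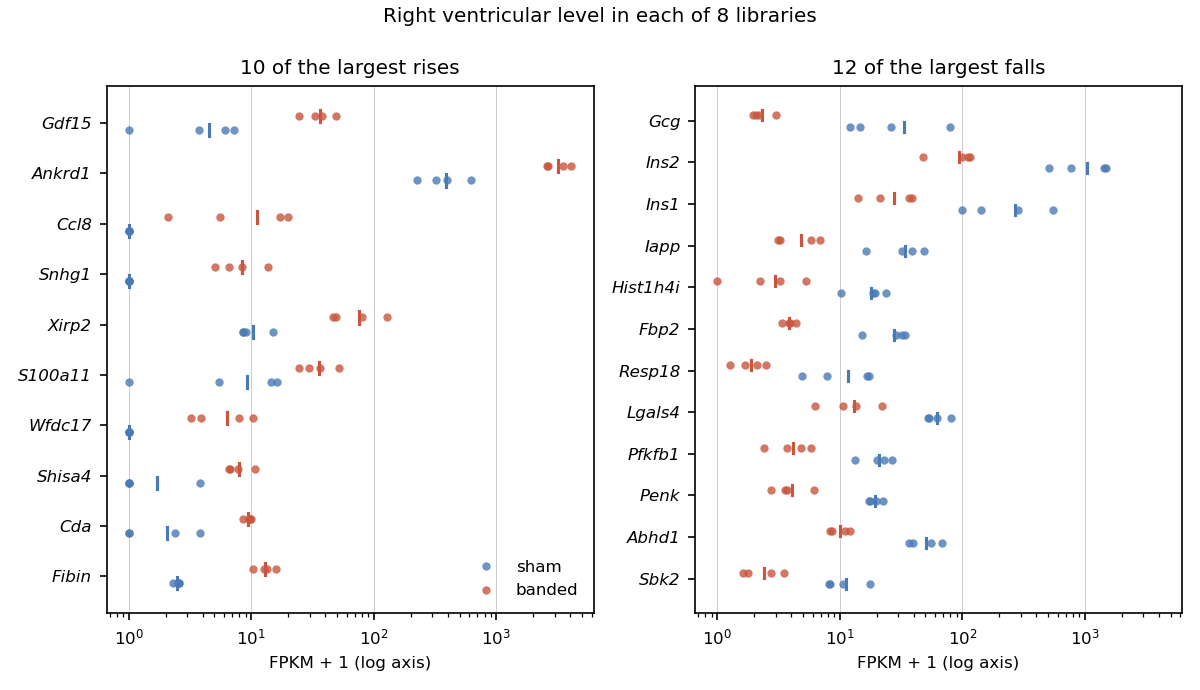
FPKM + 1 on a log axis in each of the 4 sham (blue) and 4 banded (red) right ventricular libraries for 10 of the largest rises and the 12 largest falls, with a bar at each group mean. No banded library overlaps a sham library for any gene plotted, which the rule of choice required.

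Genes of the Z-disc, the plate that anchors actin filaments and senses stretch, moved in both directions. Of 27 tested, 9 rose and 3 fell (median log2 difference 0.53, all tested genes 0.26). Ankrd1, a stretch-induced ankyrin repeat protein that binds titin, stood at 321, 224, 391 and 622 FPKM in sham and 2606, 2631, 4089.7 and 3481 FPKM in banded libraries. Every banded library was above every sham library (log2 difference 3.11 ± 0.33 SE, limma adjusted p = 4.39e-05). Xirp2, an actin-binding protein that is recruited to stressed myofibrils, stood at 7.61, 7.55, 8.05 and 14 FPKM and 45.3, 48.3, 79.1 and 127 FPKM (log2 difference 2.80 ± 0.39 SE, limma adjusted p = 0.00037), and Synpo2l, a Z-disc actin binder, at 23.4, 25.3, 20.3 and 43.6 FPKM and 81.3, 106, 81.1 and 122 FPKM (limma adjusted p = 0.000488). Groups did not overlap for these genes, and library RV_PS_9564 was the highest for Xirp2 and Synpo2l.

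Abundant structural partners at the same site fell. Fhl2, a LIM protein that links titin to metabolic enzymes and signalling, went from 1003, 1235, 813 and 1187 FPKM to 537, 536, 669 and 629 FPKM (log2 difference -0.82 ± 0.16 SE, limma adjusted p = 0.00343), and Ldb3, which ties alpha-actinin into the Z-disc, from 505 ± 82.8 to 298 ± 55.7 FPKM (limma adjusted p = 0.00381). Tcap, the titin cap, went from 2542 ± 577 to 1380.2 ± 157 FPKM (limma adjusted p = 0.0187), but did not pass without sham library 3 (0.0547) or banded library RV_PS_9564 (0.0556). Its log2 difference was -0.86 as deposited, -0.36 under TPM scaling (limma adjusted p = 0.365) and -0.33 under quantile normalization (0.363). With the 2 banded libraries that have an Rn45s value, 4 members of the list rose and 2 fell (all tested genes 197 and 309 of 12100).

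The promoter of Ankrd1, the most changed Z-disc gene, is shown because it holds the muscle CAT motif, the binding sequence of the TEAD factors, of which Tead1 rose. The 250 bases before the start are given 5′ to 3′ from RefSeq on build GRCm38.p6, chr19:36119845-36120094, minus strand, in lower case with both matches to CATTCC (here on the opposite strand, as GGAATG) in capitals.
Ankrd1 promoter: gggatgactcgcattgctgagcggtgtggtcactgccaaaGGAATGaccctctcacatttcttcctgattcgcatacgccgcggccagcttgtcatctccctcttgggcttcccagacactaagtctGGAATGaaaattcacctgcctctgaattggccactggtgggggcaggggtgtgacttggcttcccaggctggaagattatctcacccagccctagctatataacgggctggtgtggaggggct
The motif was 1 of 10 searched on both strands in windows from 250 bases before to 50 after the start, and it was chosen for display after its matches were seen. It was in 2 of the 7 rising Z-disc genes that have a window (Ankrd1 and Ankrd23) and in 16.6% of all 27025 genes with one. A match describes letters only.

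Cytoskeletal genes outside the sarcomere rose more often than they fell, as did all tested genes (10.0% and 4.93%, median log2 difference 0.26). Of 30 non-muscle actin genes 9 rose and none fell (median 0.59), and of 25 tubulin and intermediate filament genes 7 rose and 1 fell (median 0.35). Msn, which encodes moesin, a link between actin and the plasma membrane, stood at 33, 39.4, 26.3 and 29.3 FPKM in sham and 83.6, 80.3, 103 and 116 FPKM in banded libraries (log2 difference 1.55 ± 0.20 SE, limma adjusted p = 0.000234). Actn1, a non-muscle alpha-actinin, was at 7.18 ± 1.5 FPKM in sham and 17 ± 2.64 in banded libraries, and Cnn2, a calponin, at 18.5 ± 1.47 and 39.5 ± 4.37, and both rose. Map4, the main microtubule-stabilising protein of cardiomyocytes, went from 55, 51.7, 53.1 and 59.1 FPKM to 87.5, 102, 132 and 168 FPKM (limma adjusted p = 0.00146). The sham values of Map4 lay within a narrow band and all banded values above it. Map1b, a microtubule-associated protein best known from neurons, and Nes, the intermediate filament nestin, rose from 1.86 ± 0.409 to 6.39 ± 2.12 and from 6.75 ± 1.45 to 15.2 ± 3.53 FPKM. Tuba4a, an alpha-tubulin, was the member that fell, from 378, 320.3, 378 and 408 FPKM to 134, 162, 242 and 259 FPKM (log2 difference -0.94 ± 0.24 SE, limma adjusted p = 0.0134). Des, desmin, passed as deposited (log2 difference 0.68 ± 0.18 SE, limma adjusted p = 0.018) but not rescaled (0.0666), and Tubb2b, a beta-tubulin, was at 1.2 ± 1.21 and 1.88 ± 0.836 FPKM (limma adjusted p = 0.335).

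Of 20 genes of the intercalated disc, which joins cardiomyocytes end to end, 7 rose and none fell (median 0.45). Dsp, desmoplakin, the desmosomal anchor of desmin, stood at 60.02, 92.8, 67.2 and 69.6 FPKM in sham and 139, 153, 173 and 272 FPKM in banded libraries (log2 difference 1.30 ± 0.22 SE, limma adjusted p = 0.0011). Sorbs2, an adaptor of the disc and the Z-disc, stood at 31.4, 28, 25.2 and 42.1 FPKM and 65.6, 84.4, 90.3 and 154 FPKM (limma adjusted p = 0.00188). Gjc1, connexin 45, rose from 6.01 ± 1.6 to 14.5 ± 5.1 FPKM. Gja1, connexin 43, the main ventricular gap junction protein, was at 103, 159, 123 and 108 FPKM and 129.8, 157, 152 and 296 FPKM, with overlap and 1 high value in library RV_PS_9564 (log2 difference 0.52 ± 0.21 SE, limma adjusted p = 0.101). Cdh2, N-cadherin, and Ctnnb1, beta-catenin, were also among the rises.

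Ion channels carry the currents that set the cardiac action potential. Of 29 potassium, sodium and pacemaker channel genes 10 fell and 2 rose (median -0.23, rescaled -0.42, against 0.26 and 0.0893 for all tested genes). The median was positive, 0.21, under TPM scaling, where that of all genes was 0.64. Kcnh2, the channel of the rapid delayed rectifier current, stood at 40.2, 36.6, 38.3 and 34.5 FPKM in sham and 17.3, 22.3, 15.7 and 18.9 FPKM in banded libraries (log2 difference -0.98 ± 0.17 SE, limma adjusted p = 0.00125). Kcnv2, a silent potassium channel subunit, stood at 5.49, 5.97, 6.53 and 3.74 FPKM and 0.532, 0.734, 1.52 and 2.25 FPKM (limma adjusted p = 0.00143), and Hcn4, the pacemaker channel, at 2.55, 2.97, 2.69 and 2.9 FPKM and 0.494, 1.04, 0.314 and 0.519 FPKM (limma adjusted p = 0.0017). In each of the 3 the highest banded library was below the lowest sham library. Kcnj3, Kcnk3, Scn10a and the sodium pump regulator Fxyd1 were also among the falls. Atp1b1, a subunit of the sodium pump, rose from 93.6 ± 8.77 to 148 ± 24.1 FPKM. Kcnip2, the subunit that sets the transient outward current, was at 106 ± 21.8 and 129 ± 27.6 FPKM (limma adjusted p = 0.291).

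Calcium handling genes showed no common direction: of 27 tested 3 rose and 3 fell (all tested genes 10.0% and 4.93%). Cacna1g, a T-type calcium channel, stood at 8.72, 7.52, 7.23 and 6.35 FPKM in sham and 2.15, 2.08, 2.21 and 2.37 FPKM in banded libraries (log2 difference -1.39 ± 0.22 SE, limma adjusted p = 0.000773). The banded values lay close together and below every sham value. Ptp4a3, a membrane-anchored phosphatase, fell from 146 ± 35.6 to 77.6 ± 4.46 FPKM (limma adjusted p = 0.00329). Atp2a2, the pump that refills the sarcoplasmic reticulum, overlapped between groups at 1043 ± 164 and 890.1 ± 202 FPKM, and Casq1, a calcium buffer, was at 20.2 ± 10.3 and 27 ± 4.89 FPKM.

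Among 33 receptors and cyclic nucleotide enzymes 5 rose and 1 fell (all tested genes 10.0% and 4.93%). The fall was in Adra1b, an alpha-1 adrenergic receptor, at 18.1, 24.7, 20.3 and 10.5 FPKM in sham and 3.12, 4.21, 4.33 and 5.56 FPKM in banded libraries (log2 difference -1.83 ± 0.25 SE, limma adjusted p = 0.000291). Adrb1, the main cardiac beta-adrenergic receptor, was at 8.6, 6.22, 10.8 and 6.92 FPKM and 5.35, 5.75, 4.63 and 7.08 FPKM (log2 difference -0.43 ± 0.20 SE, limma adjusted p = 0.13, rescaled 0.0447). Prkar1a, the regulatory subunit that holds protein kinase A inactive, rose from 82.5, 105, 73.3 and 103 FPKM to 189, 254, 255 and 346 FPKM (log2 difference 1.49 ± 0.19 SE, limma adjusted p = 0.000216). Ednrb, an endothelin receptor, and Prkg1, the kinase activated by cyclic GMP, rose from 2.6 ± 1.41 to 7.95 ± 1.09 and from 0.656 ± 0.392 to 2.4 ± 0.79 FPKM.

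Of 23 cardiac transcription factors tested 2 rose and 2 fell, where of all tested genes 10.0% rose and 4.93% fell. Tead1, the DNA-binding partner of the Hippo effectors YAP and TAZ, stood at 17.1, 18.7, 14.8 and 22.4 FPKM in sham and 28.2, 31.9, 34.1 and 59.1 FPKM in banded libraries (log2 difference 0.98 ± 0.21 SE, limma adjusted p = 0.00502). Hopx, a homeodomain protein without DNA binding that restrains serum response factor, stood at 281, 235, 342 and 294 FPKM and 103, 144, 158 and 152 FPKM (log2 difference -1.05 ± 0.17 SE, limma adjusted p = 0.000773). Neither gene overlapped between groups. Gata4 was at 48.1 ± 7.34 and 45.9 ± 4.19 FPKM (limma adjusted p = 0.776). Of 24 genes of the Hippo pathway and its targets 4 rose and none fell, among them Wwtr1, which encodes TAZ, from 11.3, 14.4, 9.0 and 11.9 FPKM to 18, 20.2, 24.5 and 28.3 FPKM (limma adjusted p = 0.0101).

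In the list of calcineurin, CaMKII and hypertrophy regulators 1 of 29 rose and 4 fell, where of all tested genes 10.0% rose and 4.93% fell. The rise was in Rcan1, an inhibitor of calcineurin whose transcription calcineurin itself drives, at 22.5, 19.8, 31.9 and 43.4 FPKM in sham and 88.2, 104, 171 and 153 FPKM in banded libraries (log2 difference 2.11 ± 0.33 SE, limma adjusted p = 0.000714). Mapk14, p38 alpha, fell from 27.1 ± 2.51 to 17.3 ± 1.89 FPKM (limma adjusted p = 0.0102). Of 28 immediate early genes 4 rose and none fell (all tested genes 10.0% and 4.93%). Maff and Klf6, both DNA-binding regulators, rose from 4.82 ± 1.03 to 17.9 ± 9.85 and from 8.04 ± 0.40 to 21.8 ± 6.28 FPKM, while Fos was at 12.7, 25.5, 2.26 and 7.65 FPKM in sham and 4.65, 23.3, 8.73 and 8.17 FPKM in banded libraries. Of 19 clock genes 3 rose. Bhlhe40, a repressor of clock transcription, stood at 13.2, 10.4, 14.6 and 17.6 FPKM and 40.6, 44.6, 42.4 and 46.6 FPKM (log2 difference 1.60 ± 0.24 SE, limma adjusted p = 0.000585), and Ciart, also a clock repressor, at 1.02, 0, 3.08 and 4.04 FPKM and 10.3, 9.06, 7.52 and 8.57 FPKM. Nr1d1 and Dbp, whose levels cycle strongly over the day, overlapped between groups (limma adjusted p = 0.984 and 0.267). The time of day of sampling is not given in the sources used here.

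Of 35 growth factors and receptors 6 rose and 1 fell, where of all tested genes 10.0% rose and 4.93% fell. Fstl1, a secreted follistatin-like protein, stood at 14.3, 8.54, 15.8 and 16.5 FPKM in sham and 61.7, 49.6, 79.5 and 69.7 FPKM in banded libraries (log2 difference 2.18 ± 0.30 SE, limma adjusted p = 0.000306). Hbegf, a ligand of the epidermal growth factor receptors, stood at 8.92, 1.34, 4.12 and 7.31 FPKM and 15.9, 18.9, 19.1 and 19.98 FPKM (limma adjusted p = 0.00397). Igfbp7, a binding protein of insulin-like growth factors, rose from 106 ± 28 to 239 ± 67.3 FPKM, while Igf1 was at 2.81 ± 1.02 and 3.22 ± 1.29 FPKM (limma adjusted p = 0.794). Among 27 Wnt genes 3 rose and none fell. Sfrp2 and Dkk3, both secreted Wnt modulators, went from 0, 0, 0 and 0.526 FPKM to 4.18, 1.79, 4.66 and 2.98 FPKM (limma adjusted p = 0.000488) and from 1.6, 0.814, 2.57 and 0.778 FPKM to 12.9, 8.12, 8.49 and 5.4 FPKM (limma adjusted p = 0.00749). Sfrp2 was listed at 0 in 3 sham libraries. Sfrp1 and Frzb, of the same inhibitor family, had log2 differences of 0.70 ± 0.26 SE and 1.30 ± 0.44 SE that did not pass (limma adjusted p = 0.0654 and 0.0508). The activated fibroblast markers, which include Ddah1 and matrix genes, summed to 85.8 to 109 FPKM in sham and 181 to 284 FPKM in banded libraries, and 5 of 7 rose. The 12 general fibroblast markers summed to 913 to 1210 FPKM in sham and 768 to 1243 FPKM in banded libraries, with 3 rises and 3 falls. The part of fibroblasts in the rises of secreted factors was not tested.

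Of 37 angiogenic ligands and receptors 7 rose and 1 fell. Unc5b, a netrin receptor of endothelial cells, stood at 10.8, 6.49, 8.31 and 7.61 FPKM in sham and 14.9, 17.9, 17.2 and 20.6 FPKM in banded libraries (log2 difference 1.02 ± 0.17 SE, limma adjusted p = 0.000979). Efnb2, the arterial ephrin, rose from 5.89 ± 1.1 to 13.9 ± 4.52 FPKM, and Esm1, an endothelial tip cell proteoglycan, was listed at 0 in 3 sham libraries and at 1.65, 1.97, 2.48 and 4.88 FPKM in the banded ones (limma adjusted p = 0.00209). The fall was in Vegfb, from 268, 243, 285 and 253 FPKM to 185, 153, 163 and 145 FPKM (log2 difference -0.70 ± 0.18 SE, limma adjusted p = 0.0157). Vegfa, the main endothelial growth factor, was at 197 ± 55.1 and 217 ± 62.4 FPKM, and Angpt1 and Angpt2 did not pass (limma adjusted p = 0.296 and 0.0509). None of 12 tested endothelial markers was called, and their sum was 1225 to 1747 FPKM in sham and 1480 to 2318 FPKM in banded libraries.

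Integrins, which fasten cells to the matrix, had the largest share of rises among the lists, 8 of 20, with 2 falls (median 0.50). Itgb1, the beta subunit common to the cardiac integrins, stood at 31.5, 28.7, 30.2 and 35.2 FPKM in sham and 68, 64.3, 85.2 and 79.5 FPKM in banded libraries (log2 difference 1.21 ± 0.22 SE, limma adjusted p = 0.00188). Itga9 stood at 8.03, 10.1, 5.44 and 13.1 FPKM and 20.9, 19.7, 27.5 and 36.9 FPKM (limma adjusted p = 0.00168). Itgbl1, an integrin-like secreted protein, stood at 0.689, 0, 0 and 1.26 FPKM and 4.26, 7.42, 11.4 and 6.92 FPKM (limma adjusted p = 0.00041), and Itga5, Itga6, Itga11 and Itgav also rose. Itga7, the laminin-binding alpha subunit of adult cardiomyocytes, fell from 70.5, 65.7, 52.8 and 61 FPKM to 39.9, 45.9, 45.4 and 52.1 FPKM (log2 difference -0.44 ± 0.13 SE, limma adjusted p = 0.0324). That fall did not pass without banded library RV_PS_9552, RV_PS_9553 or RV_PS_9561 or sham library 1 or 2 (limma adjusted p 0.0548 to 0.0808), nor in the right ventricular libraries alone (0.113), and the log2 difference was 0.05 under TPM scaling (0.844).

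Cytokine and chemokine genes rose in 12 of 38 and fell in 2 (median 0.55). Il6st, which encodes gp130, the shared receptor of the interleukin-6 family, stood at 20.6, 16.1, 17.5 and 18.1 FPKM in sham and 28.7, 31.8, 37.6 and 49.4 FPKM in banded libraries (log2 difference 0.97 ± 0.19 SE, limma adjusted p = 0.00353). Il33, an alarmin, was listed at 0 in every sham library and stood at 1.78, 1.63, 2.17 and 1.32 FPKM in banded ones (limma adjusted p = 0.000756). Osmr, the oncostatin M receptor, and Stat3, the transcription factor downstream of gp130, were also among the rises. Cxcl14 fell from 16, 15.2, 30.6 and 14.9 FPKM to 5.16, 7.7, 10.7 and 4.29 FPKM (log2 difference -1.35 ± 0.27 SE, limma adjusted p = 0.00395). Lgals3, a macrophage lectin, was at 2.0 ± 2.07 and 3.83 ± 1.65 FPKM (limma adjusted p = 0.208). Complement and antigen presentation showed 1 rise and 1 fall, the latter Cfp, among 28 tested genes. Cfp, properdin, did not pass without banded library RV_PS_9564 (limma adjusted p = 0.0598). C3, the central complement component, was at 26.2 ± 9.08 and 23.5 ± 5.94 FPKM (limma adjusted p = 0.778).

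Of 36 interferon-stimulated genes 6 rose and none fell, and the median log2 difference was 0.75 as deposited and 0.61 rescaled. Ifit2 stood at 0.94, 1.03, 0 and 1.18 FPKM and 4.06, 2.71, 6.69 and 3.84 FPKM (limma adjusted p = 0.0039), and Ifit3 at 0, 0.967, 0 and 0 FPKM and 3.77, 1.27, 4.5 and 2.26 FPKM (limma adjusted p = 0.00318). Both encode proteins that restrain viral RNA. Ifit1, of the same family, overlapped between groups (limma adjusted p = 0.356). With the 2 banded libraries that have an Rn45s value, 1 of the list rose, where 197 of all 12100 tested genes did.

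The promoter of Ifit3 is shown because it holds a match to the interferon-stimulated response element, and it was chosen after its matches were seen. The 250 bases before the start are from RefSeq on GRCm38.p6, chr19:34583279-34583528, plus strand, 5′ to 3′, with both matches to the interferon-stimulated response element (TTTC, any 2 bases, TTTC) in capitals.
Ifit3 promoter: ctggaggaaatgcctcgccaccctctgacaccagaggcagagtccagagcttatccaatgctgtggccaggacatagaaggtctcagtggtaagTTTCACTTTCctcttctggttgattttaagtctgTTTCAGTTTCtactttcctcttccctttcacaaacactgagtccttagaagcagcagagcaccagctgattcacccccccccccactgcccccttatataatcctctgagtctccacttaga
Of the 4 rising members with a window, 2 (Ifit3 and Ddx58) hold this motif, against 3.99% of all genes with one. The rise of Ddx58, which encodes the RNA sensor RIG-I, did not pass without banded library RV_PS_9561 (limma adjusted p = 0.0624) or RV_PS_9564 (0.0502). The other 8 motifs searched were the ATF4 site TGATGNAA, the nuclear receptor half-site AAGGTCA and its longer form TCAAGGTCA that contains it, the E-box CACGTG, the NRF1 site TGCGCNC, the antioxidant response site TGACNNNGC, the CArG box and the MEF2 site. Of the 19 falling fatty acid genes with a window 2 (Acacb and Acadm) held the half-site AAGGTCA, against 5.38% of all genes. None of the 19 held TCAAGGTCA, the binding sequence of oestrogen-related receptors. That sequence occurred in 0.466% of all genes, so its absence from 19 is the usual result. The absence of letters in these windows says nothing of the factor.

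The integrated stress response, which slows translation and induces the factor ATF4, showed 6 rises and no fall among 23 genes (median 0.55). Atf4 itself stood at 38.1, 48.2, 50.2 and 53.5 FPKM in sham and 76.8, 63.2, 95.3 and 76.4 FPKM in banded libraries (log2 difference 0.70 ± 0.17 SE, limma adjusted p = 0.00958). Aldh18a1, an enzyme of proline synthesis, rose from 2.05 ± 0.634 to 4.64 ± 0.64 FPKM, and Gdf15 was also in this list. Asns, asparagine synthetase, a standard ATF4 target, was at 0.828 ± 0.757 and 1.04 ± 0.109 FPKM (limma adjusted p = 0.507). With the 2 banded libraries that have an Rn45s value 1 of the list rose (all tested genes 197 of 12100). Of 36 chaperones of the endoplasmic reticulum 2 rose, among them Pdia5, a disulphide isomerase, from 1.98 ± 0.82 to 5.46 ± 1.28 FPKM. Hspa5, the main chaperone of that compartment, was at 34.3 ± 7.58 and 43.2 ± 5.43 FPKM (limma adjusted p = 0.353).

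Cytosolic chaperones fell in 4 of 34 and rose in 2. Fkbp4, a cochaperone of HSP90, stood at 108, 100.1, 117 and 137 FPKM in sham and 42.7, 46.8, 52.6 and 47.3 FPKM in banded libraries (log2 difference -1.27 ± 0.18 SE, limma adjusted p = 0.00041). Hspb2, a small heat shock protein of muscle, stood at 172, 242, 173 and 136 FPKM and 102, 73.8, 79.9 and 56.2 FPKM (log2 difference -1.20 ± 0.22 SE, limma adjusted p = 0.00221), and Unc45b, the myosin chaperone, fell from 67.7 ± 23.7 to 37.5 ± 12 FPKM. Cryab, alpha-B crystallin, went from 3156, 2961, 2493 and 4497 FPKM to 2245, 2017, 2038 and 1800.3 FPKM (limma adjusted p = 0.0256). That fall did not pass without sham library 4 (0.0653) or banded library RV_PS_9561 (0.0570) or RV_PS_9564 (0.0692), nor in the right ventricular libraries alone (0.0812). Its log2 difference was -0.66 as deposited, -0.17 under TPM scaling (limma adjusted p = 0.672) and -0.12 under quantile normalization (0.725). Hspb1 was at 125 ± 74.9 and 101 ± 21.5 FPKM (limma adjusted p = 0.728). The rises were Dnajb4, a cochaperone of HSP70, from 3.39 ± 2.11 to 11.4 ± 1.63 FPKM, and Tcp1, a subunit of the chaperonin that folds actin and tubulin, from 10.5 ± 1.23 to 23.8 ± 6.78 FPKM.

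Genes for protein breakdown were read from 3 lists. Of 25 muscle ubiquitin ligases and FoxO factors 7 rose and 1 fell, and of 35 proteasome genes 3 rose and 1 fell. Of all tested genes 10.0% rose and 4.93% fell, and the proteasome list exceeded neither share. Fbxo32, atrogin-1, a ligase of muscle atrophy, stood at 16.1, 13.9, 11.1 and 12 FPKM in sham and 21.2, 22.4, 35.3 and 50.5 FPKM in banded libraries (log2 difference 1.15 ± 0.24 SE, limma adjusted p = 0.00433), and Fbxo40 rose from 19.8 ± 6.19 to 50.3 ± 18.5 FPKM. Trim63, MuRF1, the other atrophy ligase, was at 112 ± 19.3 and 116 ± 17.6 FPKM (limma adjusted p = 0.843). Asb2, a ligase adaptor that targets filamins, fell from 170.3 ± 10.1 to 106 ± 16.2 FPKM. Psme4, a proteasome activator, rose from 7.36 ± 1.59 to 18.6 ± 7.44 FPKM, and Psmb3, a core subunit, fell from 73.5 ± 6.77 to 47.5 ± 7.69 FPKM. In the autophagy and lysosome list 6 of 40 rose and 2 fell. Sqstm1, the autophagy receptor p62, rose from 151, 118, 154 and 163 FPKM to 216, 191, 255 and 259.8 FPKM (limma adjusted p = 0.010). Map1lc3a, which encodes a form of LC3, fell from 465, 439, 493 and 472 FPKM to 251, 235, 209.7 and 149 FPKM (log2 difference -1.17 ± 0.19 SE, limma adjusted p = 0.00105), and Npc1, a lysosomal cholesterol transporter, from 19.7 ± 1.29 to 12.3 ± 1.73 FPKM.

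Genes of ribosome assembly rose in 6 of 29, with no fall. Ncl, nucleolin, stood at 9.7, 7.31, 10.8 and 8.62 FPKM in sham and 16.3, 17.7, 31.3 and 37.9 FPKM in banded libraries (log2 difference 1.34 ± 0.28 SE, limma adjusted p = 0.00457). Gnl3, nucleostemin, and Rrp12, a processing factor of the small subunit, rose from 1.84 ± 1.23 to 6.56 ± 1.89 and from 5.38 ± 1.33 to 10.7 ± 1.38 FPKM. Translation factors (3 of 36 rose), aminoacyl-tRNA synthetases (2 of 20) and splicing factors (2 of 39) stayed at or below the 10.0% of all tested genes. None of these 4 lists had a rise with the 2 banded libraries that have an Rn45s value (all tested genes 197 of 12100).

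Of the genes for fatty acid uptake, storage and oxidation 23 of 51 fell, 22 of them without overlap of the groups, and none rose. Over all 51 tested members, called or not, 22 lay lower without overlap, against 5.07% of all tested genes. The median log2 difference was -0.52 as deposited and -0.74 rescaled, against 0.26 and 0.0893 for all tested genes. After a correction of the rescaled values for transcript length it was -0.73. On the rescaled values alone 34 passed as lower with that correction and 32 without it (all genes 1250 and 1148). Under TPM scaling the median was -0.03, that of all genes 0.64. Ech1, an isomerase of the oxidation cycle, stood at 1628, 1471, 1374 and 1365 FPKM in sham and 413, 393, 547 and 417 FPKM in banded libraries (log2 difference -1.73 ± 0.16 SE, limma adjusted p = 1.30e-05). Eci1, the isomerase for unsaturated fatty acids, stood at 312, 243, 312 and 282 FPKM and 117, 110.3, 134 and 101 FPKM (log2 difference -1.30 ± 0.16 SE, limma adjusted p = 0.000136), and Ucp3, a mitochondrial carrier linked to fatty acid use, at 32.8, 20.1, 20.8 and 27.3 FPKM and 3.39, 4.57, 5.31 and 7.38 FPKM (log2 difference -2.10 ± 0.21 SE, limma adjusted p = 3.01e-05). For each of these 3 genes every banded library was below every sham library. The falls reached from uptake and binding (Slc27a1, Fabp3) through the carnitine shuttle (Cpt2, Crat) and the dehydrogenases and thiolases (Acads, Acadvl, Acaa2) to lipid droplets (Plin5, Pnpla2, G0s2, Dgat2). With the 2 banded libraries that have an Rn45s value 22 fell (all tested genes 309 of 12100).

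Genes of the TCA cycle, ketone bodies and branched-chain amino acids fell in 12 of 38 and rose in 1 (median -0.17). Idh2, the NADP-linked isocitrate dehydrogenase of mitochondria, stood at 1343, 1235, 1276 and 1150.1 FPKM in sham and 559, 632, 758 and 768 FPKM in banded libraries (log2 difference -0.89 ± 0.15 SE, limma adjusted p = 0.0013). Bcat2, which opens branched-chain amino acid breakdown, went from 116, 128, 140.2 and 102 FPKM to 50.3, 58.9, 62.3 and 59.6 FPKM (limma adjusted p = 0.00123), and Mccc2, a later step for leucine, from 43 ± 3.12 to 23.3 ± 3.97 FPKM. Bckdha, Ivd and Pccb, further enzymes of branched-chain and propionate catabolism, were also among the falls. The rise was in Oxct1, the enzyme that commits ketone bodies to oxidation, from 156, 160.2, 145 and 174 FPKM to 218, 224, 298 and 309 FPKM (log2 difference 0.70 ± 0.17 SE, limma adjusted p = 0.0114).

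Glycolytic genes did not share a direction, with 3 of 31 rising and 5 falling (all tested genes 10.0% and 4.93%). Pfkp, an isoform of the committing enzyme phosphofructokinase, stood at 8.27, 8.48, 7.2 and 12.2 FPKM in sham and 37.8, 39.3, 53.9 and 62.4 FPKM in banded libraries (log2 difference 2.29 ± 0.22 SE, limma adjusted p = 2.11e-05). Eno3, the muscle enolase, went from 727, 713, 764 and 733 FPKM to 366, 328, 414 and 393 FPKM (log2 difference -0.97 ± 0.18 SE, limma adjusted p = 0.00268), and Ldhb, the heart form of lactate dehydrogenase, from 656 ± 79.2 to 388 ± 33.3 FPKM (limma adjusted p = 0.00395). Ldha, the muscle form, was at 255 ± 20.4 and 282 ± 30.8 FPKM (limma adjusted p = 0.554). Hk1 passed as deposited only (limma adjusted p = 0.0224, rescaled 0.0664), and Hk2 and Pkm did not pass (limma adjusted p = 0.166 and 0.893). The insulin-responsive glucose transporter Slc2a4 was among the falls.

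Glycogen, pentose phosphate and hexosamine genes rose in 9 of 34 and fell in 1 (median 0.42). Over all 34 tested members, called or not, 9 lay higher without overlap of the groups, against 12.6% of all tested genes. Gbe1, the glycogen branching enzyme, stood at 2.58, 5.77, 1.52 and 2.93 FPKM in sham and 10.8, 10.9, 15.7 and 16.5 FPKM in banded libraries (log2 difference 1.85 ± 0.28 SE, limma adjusted p = 0.000608). Ugp2, which makes the UDP-glucose that glycogen is built from, stood at 6.36, 4.43, 11.1 and 11.8 FPKM and 20.3, 27.5, 33.6 and 33.6 FPKM (limma adjusted p = 0.00182). Ppp1r3c, which brings protein phosphatase 1 to glycogen, stood at 6.62, 15.4, 8.6 and 14.9 FPKM and 26.9, 37.4, 38.8 and 46.1 FPKM (limma adjusted p = 0.000488). Each of these 3 genes was higher in every banded than in every sham library. Phkg1, the catalytic subunit of muscle phosphorylase kinase, which starts glycogen breakdown, fell from 20.2, 13.3, 14 and 16.7 FPKM to 3.75, 4.84, 6.26 and 5.76 FPKM (log2 difference -1.47 ± 0.29 SE, limma adjusted p = 0.00312). Phkb, a regulatory subunit of the same kinase, rose from 4.81, 2.7, 2.85 and 2.83 FPKM to 5.24, 6.17, 8.25 and 7.94 FPKM (limma adjusted p = 0.0132). Gfpt2, which feeds the hexosamine pathway, rose from 3.16 ± 1.97 to 8.78 ± 1.08 FPKM. With the 2 banded libraries that have an Rn45s value 3 of the list rose and 1 fell (all tested genes 197 and 309 of 12100).

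**Figure D4:**
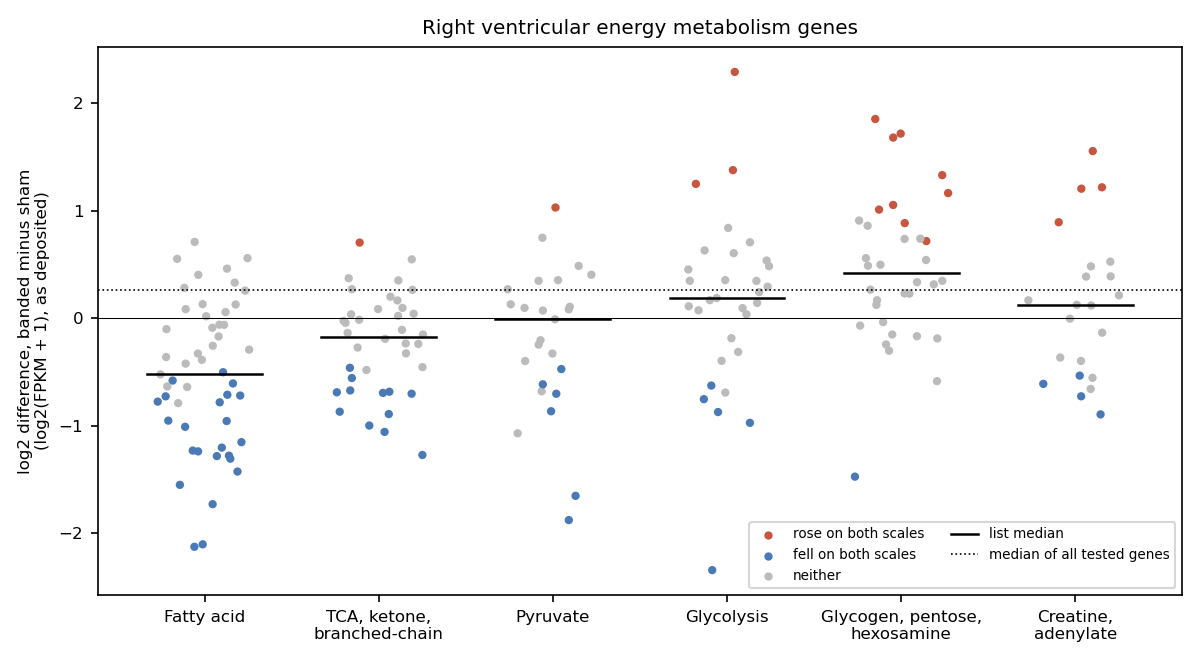
Log2 difference (banded minus sham right ventricle, log2(FPKM + 1), as deposited) of each tested gene in 6 lists of energy metabolism, with the list median as a black line and the median of all tested genes, 0.26, dotted. Horizontal scatter within a list has no meaning. The fatty acid list holds 23 falls and no rise, and the glycogen, pentose and hexosamine list 9 rises and 1 fall.

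At the entry of pyruvate into mitochondria 6 of 25 genes fell and 1 rose. Mpc2, a subunit of the mitochondrial pyruvate carrier, went from 305, 176, 302 and 278 FPKM to 146, 112, 183 and 135 FPKM (log2 difference -0.86 ± 0.19 SE, limma adjusted p = 0.00681), where banded library RV_PS_9561 exceeded sham library 2. Gpt, alanine aminotransferase, stood at 46.6, 56.7, 57.2 and 40.8 FPKM in sham and 13.6, 12.9, 14.5 and 10.7 FPKM in banded libraries (log2 difference -1.88 ± 0.25 SE, limma adjusted p = 0.000284). The kinases that switch off pyruvate dehydrogenase moved apart. Pdk1 rose from 30.8, 27.3, 26.4 and 28.6 FPKM to 45.2, 50.6, 64.4 and 80.6 FPKM (log2 difference 1.03 ± 0.18 SE, limma adjusted p = 0.00178) while Pdk4 was at 191, 109.6, 156 and 180.2 FPKM and 27.1, 78.5, 45.5 and 58.8 FPKM (log2 difference -1.65 ± 0.33 SE, limma adjusted p = 0.00347).

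In the phosphocreatine and adenylate list 4 of 22 rose and 4 fell. Ckm, muscle creatine kinase, stood at 1022, 890.2, 1102 and 1212 FPKM in sham and 485, 573, 622 and 589.8 FPKM in banded libraries (log2 difference -0.89 ± 0.19 SE, limma adjusted p = 0.00556), and Slc25a4, the main ADP/ATP carrier of the heart, fell from 4887 ± 504 to 2949 ± 198 FPKM (limma adjusted p = 0.0111). Slc6a8, the creatine transporter, rose from 82.2, 66.7, 53.6 and 64.5 FPKM to 119.8, 116, 110.4 and 151 FPKM (log2 difference 0.89 ± 0.14 SE, limma adjusted p = 0.00089), and Ak4, a mitochondrial adenylate kinase, from 3.32 ± 0.646 to 9.17 ± 2.72 FPKM. Ckb, brain creatine kinase, was at 25.2 ± 4.89 and 19.9 ± 6.13 FPKM (limma adjusted p = 0.252).

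Regulators of energy genes fell in 5 of 37 and rose in 2. Esrra, the nuclear receptor ERR alpha, stood at 106, 83.7, 81 and 92.5 FPKM in sham and 42.1, 59.7, 46 and 56 FPKM in banded libraries (limma adjusted p = 0.0023), and Sirt3, the mitochondrial deacetylase, fell from 60.3 ± 8.08 to 37.2 ± 2.59 FPKM. Prkab2, a beta subunit of AMP-activated kinase, rose from 10.3, 8.12, 7.97 and 8.84 FPKM to 13.4, 16.5, 17.3 and 22 FPKM (log2 difference 0.89 ± 0.17 SE, limma adjusted p = 0.00274). Ppara, the receptor that drives fatty acid genes, was at 11.4 ± 2.79 and 10.2 ± 3.12 FPKM (limma adjusted p = 0.62). Of 50 genes of mitochondrial shape, import and quality control 8 fell and 1 rose. Mtfp1, a fission protein, stood at 142, 149.7, 157 and 139.9 FPKM and 58.8, 62.8, 68.1 and 62.1 FPKM (log2 difference -1.21 ± 0.15 SE, limma adjusted p = 0.000123), and Pink1, the kinase that marks damaged mitochondria, at 406, 395, 363 and 336 FPKM and 192, 201, 198 and 180.3 FPKM (limma adjusted p = 0.00188). Opa1, the inner membrane fusion protein, was the rise, from 10.1, 9.38, 11.1 and 9.18 FPKM to 15, 17.1, 19.4 and 29.1 FPKM (limma adjusted p = 0.00456). Timm13, an import chaperone, fell from 67.1 ± 19.7 to 29.6 ± 5.44 FPKM.

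Antioxidant genes split, with 6 of 44 rising and 8 falling. Mt2, a metallothionein that binds zinc and copper, stood at 95.2, 60.3, 93.3 and 131 FPKM in sham and 407, 377, 299.9 and 155 FPKM in banded libraries (log2 difference 1.66 ± 0.27 SE, limma adjusted p = 0.000887), with library RV_PS_9564 the lowest of the banded group, while Mt1 overlapped between groups (limma adjusted p = 0.863). Nqo1, a quinone reductase under NRF2, rose from 19.3, 16.1, 26.9 and 21.9 FPKM to 41.6, 48.8, 59.8 and 63.1 FPKM (limma adjusted p = 0.000891), and Gpx3, the secreted glutathione peroxidase, from 116 ± 10.2 to 247 ± 43.3 FPKM. Gstk1, a mitochondrial and peroxisomal glutathione transferase, fell from 77.3, 66, 84 and 71.4 FPKM to 26.7, 17.2, 34.4 and 18.4 FPKM (log2 difference -1.64 ± 0.25 SE, limma adjusted p = 0.000585), and Mgst3 and Selenbp1, a membrane glutathione transferase and a selenium-binding protein, from 625 ± 118 to 319 ± 42.9 and from 28 ± 4.68 to 13.3 ± 1.74 FPKM. In the iron and heme list 1 of 29 rose and 3 fell. The rise, in Tfrc, the transferrin receptor, from 3.43 ± 2.23 to 12.2 ± 5.07 FPKM, did not pass without sham library 3 (limma adjusted p = 0.0505) or banded library RV_PS_9561 (0.0600) or RV_PS_9564 (0.0641).

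Of 40 phospholipid and sphingolipid enzymes 6 fell and 2 rose, against 4.93% of all tested genes that fell and 10.0% that rose. Of 30 cholesterol and fatty acid synthesis genes 1 rose. Agpat3 and Lpcat3, acyltransferases that build and remodel phospholipids, fell from 65.9 ± 7.73 to 35 ± 4.08 and from 18.1 ± 3.49 to 8.68 ± 0.51 FPKM. In the amino acid and nucleotide list 3 of 42 rose. Ddah1, which breaks down the nitric oxide synthase inhibitor dimethylarginine, stood at 1.2, 0, 0 and 0.88 FPKM in sham and 3.45, 3.27, 5.62 and 6.38 FPKM in banded libraries (log2 difference 1.95 ± 0.31 SE, limma adjusted p = 0.000719), with 2 sham libraries at 0.

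Of 27 tested cell cycle genes 3 rose and 1 fell, and 17 of the 44 in the table were too low to be tested. Ccnd2, cyclin D2, stood at 12.1, 16.5, 8.47 and 13.8 FPKM in sham and 38.8, 42, 45.3 and 75.6 FPKM in banded libraries (log2 difference 1.89 ± 0.23 SE, limma adjusted p = 0.000123). Every banded library was above every sham library. Ccnd1 did not pass (limma adjusted p = 0.0543), and Cdkn1a, the inhibitor p21, passed as deposited only (limma adjusted p = 0.0358, rescaled 0.0686). Plk2, a stress-induced kinase, rose from 7.27 ± 2.92 to 20.8 ± 4.86 FPKM. In the apoptosis and p53 list 7 of 37 rose and 1 fell. Ripk3, a kinase of necroptosis, rose from 1.63, 1.46, 1.6 and 2.24 FPKM to 3.41, 3.54, 5.04 and 6.19 FPKM (limma adjusted p = 0.00364), and Trp53inp2, an autophagy cofactor, from 118 ± 23.1 to 224 ± 51.9 FPKM. Endog, a mitochondrial nuclease, fell from 67.9 ± 14 to 33 ± 3.81 FPKM. Among 16 imprinted genes 2 rose and 3 fell. Grb10 and Mest, both linked to growth control, rose from 11.3 ± 3.94 to 25.6 ± 8.36 and from 1.85 ± 1.3 to 6.48 ± 1.5 FPKM.

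The same contrast in the left ventricle shows where the right ventricle differed. The test was the difference of the banding effects, right minus left, which passed on both scales for 64 genes with a higher effect in the right ventricle (0.529% of those tested) and 431 with a lower one (3.56%), 4.09% in all. Among the 306 list members that rose or fell in the right ventricle, 16 had a higher and 67 a lower right ventricular effect. The right ventricular effect, by which these members were chosen, is part of the tested difference. Their share is therefore not comparable with the 4.09% of all tested genes. Without banded library RV_PS_9564 of the right ventricle the higher count was 31 and without RV_PS_9553 it was 40. Single genes of this comparison were not refitted without each library.

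Genes that rose further in the right ventricle included regulators of load and growth. Ankrd1 had a log2 difference of 1.43 in the left ventricle, and the effects differed by 1.68 (limma adjusted p = 0.0431). Ccnd2 was at 0.11 in the left ventricle (difference 1.78, limma adjusted p = 0.00317), Sorbs2 at 0.0402 (difference 1.52, limma adjusted p = 0.0291) and Tead1 at -0.0534 (difference 1.04, limma adjusted p = 0.0453). In metabolism, Pfkp was at 0.99 (difference 1.30, limma adjusted p = 0.0199), Ppp1r3c at 0.47 (difference 1.21, limma adjusted p = 0.0478), Slc6a8 at 0.0188 (difference 0.87, limma adjusted p = 0.0151) and Prkab2 at -0.33 (difference 1.22, limma adjusted p = 0.00492). These 8 genes were all higher in every banded than in every sham library of the right ventricle. In sham mice the mean of each of the 8 was lower in the right than in the left ventricle. Sham means were 389 and 1103 FPKM for Ankrd1, 12.7 and 27.1 for Ccnd2, and 18.3 and 31.8 for Tead1. The banded means of these 3 genes were 3202 and 3110, 50.4 and 29.8, and 38.3 and 30.9 FPKM, right before left. Gdf15 and Rcan1 had larger log2 differences in the right ventricle than in the left (1.15 and 0.52 there), but those differences did not pass on both scales (limma adjusted p = 0.0784 and 0.0539 as deposited).

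Of all 51 tested fatty acid genes 15 had a lower effect in the right than in the left ventricle, against 3.56% of all tested genes. All 15 were among the 23 that fell, which were chosen by the right ventricular effect itself. Lower effects were not particular to this list. They were called for 9 of 35 proteasome genes, 8 of 36 translation factors, 10 of 44 antioxidant genes and 10 of 50 genes of mitochondrial shape, import and quality control. Among 30 non-muscle actin genes there were 0. Ech1 had a left ventricular log2 difference of -0.0207 (difference of effects -1.71, limma adjusted p = 0.00069) and Ucp3 of -0.39 (difference -1.71, limma adjusted p = 0.0030). Fbp2 and Penk, at -0.0701 and 0.38 in the left ventricle, differed by -2.69 and -2.69 (limma adjusted p = 0.00069 and 0.00069). For other falling genes the left ventricular difference had the opposite sign. Ckm was at 1.01 in the left ventricle against a fall in the right (difference -1.91, limma adjusted p = 0.000876), Tcap at 1.2 (difference -2.06, limma adjusted p = 0.00148), Hspb2 at 1.05 (difference -2.25, limma adjusted p = 0.000825) and Map1lc3a at 0.98 (difference -2.15, limma adjusted p = 0.00069). Sham means of Ech1, Ckm and Tcap were 1459, 1056 and 2542 FPKM in the right and 816, 724 and 1178 FPKM in the left ventricle. Their banded means were 443, 567 and 1380 FPKM in the right and 816, 1413 and 2822 FPKM in the left. Igf2 and H19, imprinted neighbours, differed between ventricles without a right ventricular call, at 1.34 and 2.38 in the left (difference -1.82 and -2.62, limma adjusted p = 0.00317 and 0.00273). Pdk4 fell in the right ventricle with -1.27 in the left, and its effects did not pass as different (limma adjusted p = 0.746). The left ventricular banded libraries LV_PS_9552, LV_PS_9553 and LV_PS_9561 were also listed at 0 for Rn45s, and what this contributed was not tested.

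**Figure D5:**
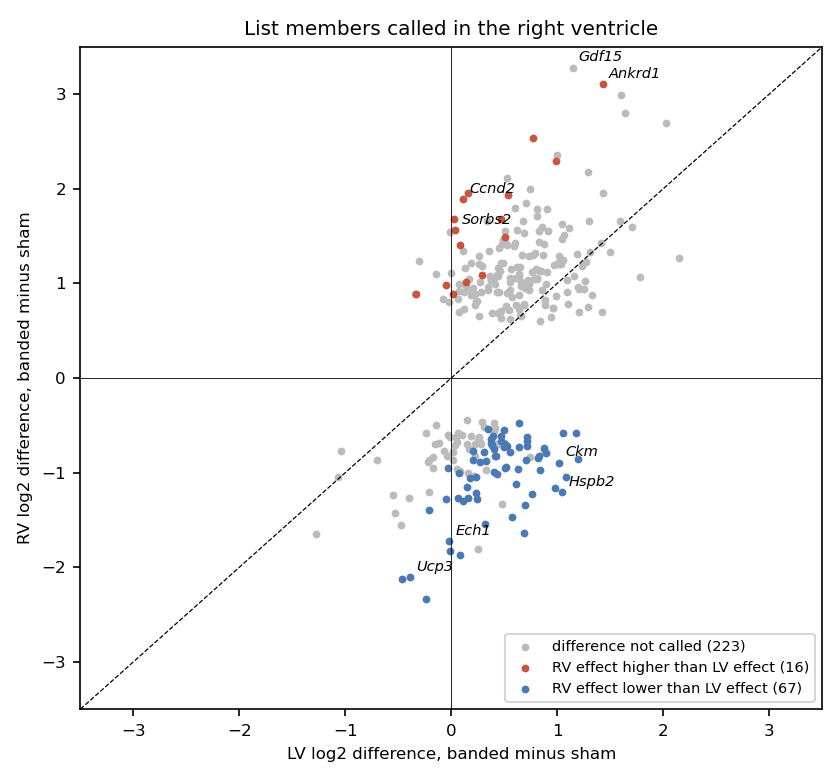
Log2 difference (banded minus sham) in the right ventricle against that in the left for the 306 list members that rose or fell in the right ventricle; the dashed line marks equal effects. The 16 genes with a higher right ventricular effect (red) lie above the line and the 67 with a lower one (blue) below it.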

How the data were processed

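RNA from right and left ventricular free walls was measured in 16 libraries, 4 per group. The authors deposited FPKM per gene. The submitters' processing notes name STAR 2.5.3a, Cufflinks 2.2.1, Cuffdiff, FastQC 0.11.5, R 3.3.1 and genome build mm9; settings are not given in the sources used here. FPKM carries no counts, so log2(FPKM + 1) was fitted with limma 3.58.1 (R 4.3.3, trended prior) in 4 group means without covariates, on genes reaching 1 FPKM in no fewer than 4 of the 16 libraries. Scale factors were median ratios over the 9934 genes above 0 in every library. Depth was estimated from the smallest FPKM steps. FPKM is relative, so very abundant entries can shift other values. Mir6236 made up 21.3% to 59.7% of a library's FPKM sum. TPM scaling divides by that sum, so its results rest on this entry too. A share of the FPKM sum is not a share of fragments, and what Mir6236 contributed to the deposited values was not tested. The script was tested on simulated data.

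The comparison, the gene lists and the marker lists were chosen with earlier results of these data known. Named were the 12 largest rises and falls on both scales (a group mean of at least 5 FPKM, no overlap, natriuretic, matrix and oxidative phosphorylation genes left out) and up to 3 rises and 3 falls per list with the smallest p. Some genes this rule names are not reported here. Genes whose call was lost without 1 library were mostly not named, and further list members, chosen after their values were seen, are named without values or for their role. Alternatives were other pseudocounts, filters, scalings, a robust prior, a replicate block, the right ventricular libraries alone, each library left out, a length correction and, added after seeing the data, other scale factors and library subsets. Promoter windows were taken from a RefSeq table on GRCm38.p6, and no coordinates were carried over from mm9.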

Additional observations from a re-analysis of the deposited data

Results flagged for a closer look

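For 23 of 418 combinations of a named gene and a right ventricular group (5.5%), 1 library stood apart from the other three by Dixon's criterion, which chance meets in about 1 of 20 such groups. The first of these values were Xirp2 in sham library 4 (14 FPKM), Shisa4 in sham library 1 (2.8 FPKM), Fibin in sham library 1 (1.3 FPKM), Gja1 in banded library RV_PS_9564 (296 FPKM), Kcnip2 in sham library 2 (73.4 FPKM) and Igf2 in banded library RV_PS_9553 (7.23 FPKM). In genes of growth, vessels and inflammation they were Sfrp2 in sham library 4 (0.526 FPKM), Frzb in banded library RV_PS_9561 (6.93 FPKM), Esm1 in sham library 4 (0.53 FPKM), Cxcl14 in sham library 3 (30.6 FPKM) and Ifit3 in sham library 2 (0.967 FPKM). In genes of protein and energy metabolism they were Psme4 in sham library 3 (9.73 FPKM), Psmb3 in sham library 4 (63.4 FPKM), Ech1 in banded library RV_PS_9561 (547 FPKM), Ldhb in sham library 1 (774 FPKM), Hk1 in banded library RV_PS_9564 (91.5 FPKM), Gfpt2 in banded library RV_PS_9564 (7.17 FPKM) and Agpat3 in banded library RV_PS_9564 (41.1 FPKM). The remaining values were Plk2 in sham library 3 (11.6 FPKM), Itgav in sham library 2 (3.49 FPKM), Msln in sham library 4 (0.371 FPKM), Osmr in sham library 4 (3.48 FPKM) and Phkb in sham library 1 (4.81 FPKM).

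For 66 named genes the banding effect differed between the ventricles in the test of the difference itself on both scales, 16 with a higher and 50 with a lower effect in the right ventricle. Values are the right minus the left ventricular effect on the log2 scale. Higher effects in structural genes and load-responsive regulators were those of Ankrd1 (1.68), Ankrd23 (1.32), Sorbs2 (1.52), Tead1 (1.04) and Ccnd2 (1.78). Among genes of signalling and vessels they were Prkar1a (0.99), Unc5b (0.87) and Esm1 (1.65). Among secreted and adhesion genes they were Fibin (1.38), Sfrp2 (1.40) and Itgbl1 (1.76), and in metabolism Ddah1 (1.80), Pfkp (1.30), Ppp1r3c (1.21), Slc6a8 (0.87) and Prkab2 (1.22).

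Lower effects in fatty acid genes were those of Acaa2 (-1.86), Ucp3 (-1.71), Ech1 (-1.71), G0s2 (-1.52), Eci1 (-1.42), Dgat2 (-1.30), Plin5 (-1.22), Fabp3 (-1.09), Cpt2 (-1.08), Crat (-0.98) and Acadvl (-0.92). In the TCA and branched-chain list they were Idh2 (-1.16), Bcat2 (-1.24) and Bckdha (-1.40), and in glucose, glycogen and pyruvate metabolism Fbp2 (-2.69), Pfkfb1 (-2.10), Phkg1 (-2.05), Gpt (-1.96), Eno3 (-1.81), Mpc2 (-1.57) and Ldhb (-1.15). In energy transfer and mitochondrial maintenance they were Ckm (-1.91), Timm13 (-1.73), Pink1 (-1.46), Mtfp1 (-1.45) and Slc25a4 (-1.36). Antioxidant genes had Gstk1 (-2.32), Mgst3 (-1.59) and Selenbp1 (-1.44). Structural genes and protein quality control had Hspb2 (-2.25), Map1lc3a (-2.15), Tcap (-2.06), Tuba4a (-1.46), Fkbp4 (-1.42), Cryab (-1.38), Psmb3 (-1.34), Fhl2 (-1.24), Unc45b (-1.24), Asb2 (-1.07) and Npc1 (-1.02). Channels, receptors and regulators had Adra1b (-1.82), Hopx (-1.29), Ptp4a3 (-1.21), Cacna1g (-1.18) and Fxyd1 (-1.09). Other genes with a lower effect were Penk (-2.69), H19 (-2.62), Cxcl14 (-2.04), Abhd1 (-1.90) and Igf2 (-1.82).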

How the results depend on the processing

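Of 138 counts of genes under other settings, 119 stayed within 1.5 times the reported count. In the right ventricular libraries alone, 554 rose and 325 fell as deposited, 533 and 699 rescaled, and 470 and 322 on both scales. TPM scaling gave 5679 higher and 142 lower, and quantile normalization 1043 higher and 1071 lower. With the banded libraries that have an Rn45s value, chosen after seeing the data, 197 rose and 335 fell as deposited and 197 and 309 on both scales, of which 479 had the same call among all libraries. Leaving out 1 library gave 707 to 1791 higher and 443 to 661 lower as deposited, 822 to 1378 and 822 to 1301 rescaled, and 666 to 1360 and 443 to 660 on both scales. The lowest counts of rises were without banded library RV_PS_9561 (707 and 666), followed by RV_PS_9564 (741 and 721). For the difference between ventricles the ranges were 31 to 90 higher, lowest without RV_PS_9564 and next (40) without RV_PS_9553, and 302 to 534 lower. Rescaling itself moved the split from 1512 higher and 596 lower to 1226 and 1148, and a correction for transcript length on that scale gave 997 and 1250. Itga7 reversed under TPM scaling (log2 difference 0.0510). The cause of these shifts was not tested. Settings that leave libraries out also have fewer samples, and what this contributed was not tested either.

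Of the 174 named genes that rose or fell, 159 kept their call in the right ventricular libraries alone, 126 under TPM scaling, 165 under quantile normalization, 113 with the Rn45s libraries, 172 with the length correction and 168 to 173 without 1 library. The last range was partly set by the choice of genes, because those whose call was lost without 1 library were mostly not named. Under quantile normalization the log2 difference of Slc25a4 was -0.14, of Fabp3 -0.41, of Fxyd1 -0.32, of Prkg1 0.58, of Aldh18a1 0.58, of Itgav 0.79 and of Cd14 1.43, and with Tcap and Cryab these were the calls lost. With the replicate block, which treats same-numbered libraries of the 2 ventricles as paired, the consensus correlation was -0.0707, 1216 rose and 599 fell on both scales, 1806 of these calls were shared with the unblocked fit, and the ventricles differed in 49 and 404 genes. The labels do not say that a number marks 1 mouse. The low depth of the sham libraries limits genes listed at 0 there.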
